A study of Mus musculus with 6 samples.

Results

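The genes described here encode the kinetochore, the spindle assembly checkpoint, the condensin complex and the proteins that work beside them when a chromosome is packed, attached to the spindle and pulled apart. They are 48 genes taken by symbol from what they are known to do, with earlier results of these data known. Their probes were the non-control spots that carry 1 of those symbols or an older alias. All 48 had a probe (65 of the 55681 probes on the array), and 47 were among the 26643 genes tested.

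Spleen RNA of mice was hybridised to 6 one-colour arrays. The 3 arrays of the 900 cGy group held RNA of spleens taken 24 h after total body irradiation, in which the whole animal is exposed to X-rays. The 3 arrays of the 0 cGy group held RNA of resting, unirradiated mice. All mice were of the strain B10.BALB-16.C2A, each array held a pool of 3 mice, and the labels give neither age nor sex. The unirradiated mice are not described as sham-treated, and a p-value here measures the spread between pools, not between mice. A level is the log2 of a probe's signal divided by the 75th percentile of its array. It is 0 for a signal equal to that percentile, and a difference of -1 is a 2-fold lower signal.

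Before chromosomes separate, each centromere, a stretch of chromatin marked by the histone variant CENP-A, carries a kinetochore. The centromere-bound network holds its inner face, and the NDC80 complex grips microtubules at its outer face. Kinetochores without microtubules switch on the spindle checkpoint, which holds back CDC20 and the anaphase promoting complex until all chromosomes are attached; securin is then destroyed and separase cuts cohesin. Condensin and topoisomerase II compact and untangle the chromosomes meanwhile. Transcripts of most of these proteins build up toward G2 and mitosis, and in the mouse spleen red cell precursors of the red pulp are a known population of dividing cells, beside activated lymphocytes.

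The arrays carried markers of the labelled tissue: Cd79a, Ms4a1, Cd3e, Cd3d, Spic, Vcam1 and Cd5l were well above background on all 6. Between 39036 and 39979 probes were well above background on the irradiated arrays and between 39630 and 41267 on the unirradiated ones, and no spot was saturated. Cdkn1a, the cyclin-dependent kinase inhibitor p21, rose 24.4-fold after irradiation (log2 change 4.61 ± 0.09 SE, adjusted p = 2.64e-05). The libraries also differed in 10 markers of exocrine pancreas, whose signals summed to 1328 to 1650 times the 75th percentile on the irradiated arrays, against 1.89, 187 and 33.6 times on unirradiated arrays 1, 2 and 3. What pancreatic RNA contributes to the values below was not tested.

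Of the 47 tested members, 44 fell and 0 rose after 900 cGy, and 3 did not pass the threshold (limma, adjusted p under 0.05, n = 3 pools per group). Over all 26643 genes tested, 31% fell and 28.3% rose. The median log2 change of the members was -2.34, a 5.07-fold lower level, beside -0.06 over all genes. A fall of at least 2-fold was seen for 41 members, where the share over all genes was 9.33%. At least 4-fold lower were 35 members, beside 2.56% of all genes. The largest falls were those of Esco2, Mki67 and Nusap1, each more than 8-fold. For each of the 44, all 3 irradiated arrays lay below all 3 unirradiated ones, an order seen for 35.7% of all genes. With spike-in scaling, which moved the median of all genes to -0.34, 10791 genes fell and 4807 rose in place of 8259 and 7536, and 46 members fell with a median of -2.63. The SE of the 44 log2 changes lay between 0.11 and 0.56. Ttk and Cenpf, among the 44, passed the filter through the unirradiated group only. When only genes well above background on all 6 arrays were fitted, 42 of 45 members fell and 0 rose. Over all genes of that fit, 7911 fell and 7079 rose. In bulk RNA of a spleen, fewer dividing cells and less RNA per cell cannot be told apart.

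**Figure D1:**
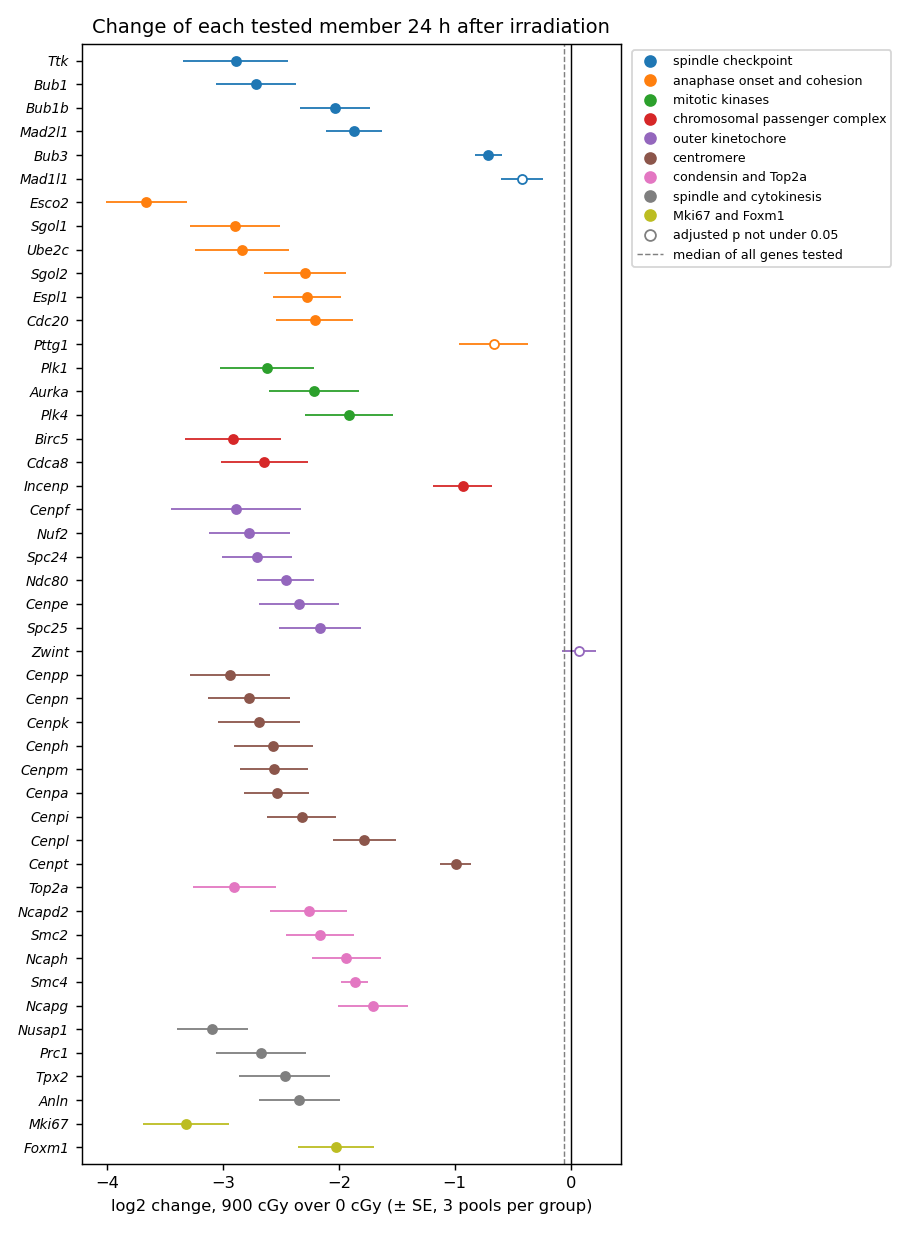
Log2 change (900 cGy over 0 cGy, ± SE, 3 pools per group) of each of the 47 tested members, coloured by role. Filled points passed an adjusted p of 0.05. Most lie between -3 and -1.7, far left of the dashed median of all genes (-0.06), with Zwint at 0.07 and Mad1l1 and Pttg1 (open circles) nearest to it.

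By slide position, the first row held all 3 unirradiated arrays and irradiated array 1, and the second row held irradiated arrays 2 and 3. The second row held no unirradiated array. With the row as a block, each log2 change thus compares irradiated array 1 with the 3 unirradiated arrays. The block gave the same log2 changes as the first row alone, such as -0.96 for Incenp and -1.76 for Plk4. Within the first row alone, where the single irradiated array is assumed to vary like the others, 37 fell, the median was -2.35, and Aurka, Bub3, Foxm1, Incenp, Plk4, Tpx2 and Ttk did not pass, their log2 changes lying at -2.12, -0.75, -1.96, -0.96, -1.76, -2.34 and -2.35.

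The promoters of these genes were read because the members moved together. The RefSeq promoter table of GRCm38.p6 gives windows of 250 bases before to 50 after a transcription start, and 41 of the 48 members had 47 windows in it. Aurkb, Esco2, Foxm1, Incenp, Smc4, Spc24 and Tpx2 were not matched. The 250 bases upstream of the start are printed 5′ to 3′ for 7 members: 4 that fell by more than 2 on the log2 scale (Mki67, Cdc20, Top2a and Ncapd2), Bub3, which changed least among those that fell, and 2 that did not pass (Pttg1 and Zwint). Capitals mark the CHR words TTTGAA and TTCGAA and the word CCAAT, on either strand, so that TTCAAA and ATTGG are the same words read from the other strand.
Mki67 (chr7:135716380-135716629, minus strand): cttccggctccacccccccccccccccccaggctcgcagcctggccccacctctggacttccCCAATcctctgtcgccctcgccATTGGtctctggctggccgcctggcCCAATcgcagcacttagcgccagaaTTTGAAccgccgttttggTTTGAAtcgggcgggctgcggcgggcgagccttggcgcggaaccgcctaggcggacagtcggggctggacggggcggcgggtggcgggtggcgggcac
Cdc20 (chr4:118437344-118437593, minus strand): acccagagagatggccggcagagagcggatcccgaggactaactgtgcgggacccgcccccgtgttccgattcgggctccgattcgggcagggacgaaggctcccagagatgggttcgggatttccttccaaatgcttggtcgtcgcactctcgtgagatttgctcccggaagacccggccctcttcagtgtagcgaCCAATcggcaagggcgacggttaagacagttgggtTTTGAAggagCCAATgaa
Top2a (chr11:99024190-99024439, minus strand): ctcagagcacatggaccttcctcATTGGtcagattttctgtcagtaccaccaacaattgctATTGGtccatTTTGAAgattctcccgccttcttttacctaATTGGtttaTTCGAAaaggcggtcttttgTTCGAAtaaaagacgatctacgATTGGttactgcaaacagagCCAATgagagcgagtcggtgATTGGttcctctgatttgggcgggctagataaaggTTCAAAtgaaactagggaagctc
Ncapd2 (chr6:125191587-125191836, minus strand): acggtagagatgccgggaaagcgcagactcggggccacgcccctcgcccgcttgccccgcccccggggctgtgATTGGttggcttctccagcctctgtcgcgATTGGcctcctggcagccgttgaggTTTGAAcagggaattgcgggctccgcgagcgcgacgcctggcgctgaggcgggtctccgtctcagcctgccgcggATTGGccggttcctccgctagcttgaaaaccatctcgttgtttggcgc
Bub3 (chr7:131560120-131560369, plus strand): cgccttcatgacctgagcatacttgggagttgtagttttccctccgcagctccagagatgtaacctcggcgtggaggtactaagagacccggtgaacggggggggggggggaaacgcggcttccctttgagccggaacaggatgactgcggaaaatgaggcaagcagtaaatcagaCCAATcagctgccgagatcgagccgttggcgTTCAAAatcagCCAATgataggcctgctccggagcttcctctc
Pttg1 (chr11:43425982-43426231, minus strand): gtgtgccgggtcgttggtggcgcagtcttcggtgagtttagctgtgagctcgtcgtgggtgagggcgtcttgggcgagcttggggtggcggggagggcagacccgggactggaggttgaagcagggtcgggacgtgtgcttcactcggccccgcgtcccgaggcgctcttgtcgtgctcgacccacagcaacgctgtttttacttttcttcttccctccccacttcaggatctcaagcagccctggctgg
Zwint (chr10:72654596-72654845, plus strand): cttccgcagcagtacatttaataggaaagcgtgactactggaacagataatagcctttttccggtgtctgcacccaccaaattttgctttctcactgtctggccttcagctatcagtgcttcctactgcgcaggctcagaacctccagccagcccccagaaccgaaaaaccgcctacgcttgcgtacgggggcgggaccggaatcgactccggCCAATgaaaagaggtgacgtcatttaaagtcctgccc

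The CHR (cell cycle genes homology region) is an element known to bind complexes built on MuvB, and CCAAT is known to bind NF-Y; both are common in promoters of G2 and mitosis genes. A CHR word lay in 27 of the 47 member windows (57.4%), against 19.2% of all 32851 windows in the table. CCAAT lay in 34 member windows (72.3%), against 37.4% of all windows, and both words lay together in 25 member windows (53.2%), against 7.52%. The E2F words TTCCCGC and TTGGCGC, sought on both strands, lay in 11 member windows (23.4%), against 6.81% of all. TTCGAA reads the same on both strands, and among the members, words of different motifs shared a base in the window of Cdca8 only.

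Members with and without these words were among those that fell. Mki67, Cdc20, Top2a and Ncapd2, printed above, all hold a CHR word and CCAAT. Birc5, Cenpp and Nuf2, not printed, hold neither in their windows and changed by -2.91, -2.94 and -2.77. The 25 members with a CHR word had a median log2 change of -2.54, and the 16 members with a window but no such word had -2.31. Bub3 holds a CHR word and 2 CCAAT words in the sequence above and changed by -0.71, while Nusap1, at -3.09, holds none of the 3 motifs in its window. Of the 3 members that did not pass, Mad1l1 and Pttg1 hold none of the words in their windows and Zwint holds CCAAT only. A missing word says only that these letters are not in the window.

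**Figure D2:**
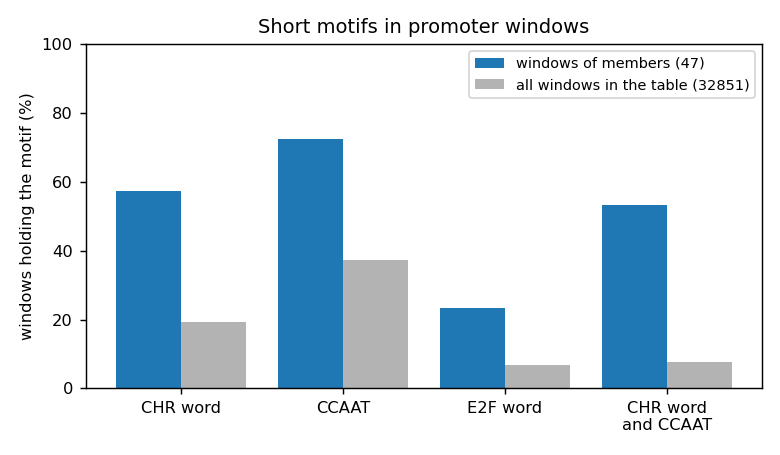
Share of promoter windows (%, vertical axis) that hold each word or pair of words, for the 47 windows of members (blue, left) and all 32851 windows of the table (grey, right). The pair of CHR and CCAAT lies in 53.2% of member windows, against 7.52% of all.

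The spindle checkpoint genes fell in 5 of 6 cases, with a median log2 change of -1.95. Beside this count and those of the other roles below, 31% of all genes fell. Ttk, the kinase MPS1 that starts checkpoint signalling at the kinetochore, measured -5.42, -6.25 and -6.23 on irradiated arrays 1, 2 and 3, against -2.35, -2.86 and -4.02 on unirradiated arrays 1, 2 and 3. The groups were well apart, although Ttk was well above background on only 1 of the 3 irradiated arrays. Its log2 change, which rests in part on signals near background, was -2.89 ± 0.45 (SE, adjusted p = 0.00193), and -1.21 with normexp background correction. Bub1 and Bub1b, a kinase and the BUBR1 part of the mitotic checkpoint complex, changed by -2.71 and -2.03, and Mad2l1, the MAD2 protein that captures CDC20, by -1.87.

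The smallest log2 changes of the checkpoint were those of Bub3 and Mad1l1. Bub3, the WD-repeat partner of BUB1 and BUBR1, measured 3.07, 3.11 and 3.16 on the irradiated arrays, against 3.96, 3.92 and 3.60 on the unirradiated arrays. That fall was small but clear of the spread, at -0.71 ± 0.12 (adjusted p = 0.00225). Mad1l1, the MAD1 scaffold that brings MAD2 to the kinetochore, measured 0.71, 0.57 and 0.61 after irradiation, against 1.39, 1.08 and 0.68 without it. The lowest unirradiated pool lay just under the highest irradiated one, and the log2 change of -0.42 ± 0.18 did not pass (adjusted p = 0.0857). Without unirradiated replicate 3 it was -0.60 and passed (adjusted p = 0.0075), and without unirradiated replicate 1 it was -0.25.

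Genes of anaphase onset and sister chromatid cohesion fell in 6 of 7 cases (median -2.29). Esco2, the acetyltransferase that locks cohesin onto new sister chromatids in S phase, changed most of all 47. Its levels were -4.21, -4.40 and -4.41 on the irradiated arrays, against -0.23, -0.29 and -1.52 on the unirradiated arrays. Even the lowest unirradiated pool stood far above the irradiated ones, and the log2 change was -3.66 ± 0.35, 12.6-fold lower (adjusted p = 0.000251). The shugoshins Sgol1 and Sgol2, which shield centromeric cohesin, changed by -2.90 and -2.29. Ube2c, the ubiquitin-conjugating enzyme of the anaphase promoting complex, changed by -2.84, Espl1, which encodes separase, by -2.28, and Cdc20, whose promoter is printed above, by -2.21.

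Pttg1, which encodes securin, the inhibitor of separase, was the exception of that group. It measured 3.97, 4.01 and 4.25 on the irradiated arrays, against 5.19, 4.99 and 4.05 on the unirradiated arrays. Unirradiated pool 3 lay among the irradiated pools, while the other 2 lay above them. The log2 change of -0.67 ± 0.30 did not pass (adjusted p = 0.0966). Without unirradiated replicate 3 it was -1.01 and passed (adjusted p = 0.00141), and without unirradiated replicate 1 it was -0.44.

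The 3 mitotic kinases all fell, with a median of -2.21. Plk1, the polo-like kinase that acts at centrosomes, kinetochores and the midbody, measured 1.33, 1.24 and 1.30 on the irradiated arrays, against 4.52, 4.30 and 2.90 on the unirradiated arrays. The irradiated pools were within 0.1 of each other and all low, and the log2 change was -2.62 ± 0.41, 6.14-fold lower (adjusted p = 0.00186). Plk4, the kinase that licenses centriole duplication, measured -4.13, -4.17 and -4.55 after irradiation, against -1.72, -2.16 and -3.24 without it. Its groups did not overlap (-1.91 ± 0.38, adjusted p = 0.0053), and normexp background correction gave -1.23. Aurka, the spindle pole kinase, changed by -2.21.

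Of the chromosomal passenger complex, which corrects wrong attachments and steers cytokinesis, 3 of the 4 genes could be tested and all 3 fell (median -2.64). Birc5, which encodes survivin, measured 2.29, 2.19 and 2.23 on the irradiated arrays, against 5.76, 5.56 and 4.12 on the unirradiated arrays. All irradiated pools were low and alike, and the log2 change was -2.91 ± 0.42, 7.54-fold lower (adjusted p = 0.00129). Cdca8, which encodes borealin, changed by -2.64. Incenp, the scaffold of the complex, changed least. Its levels were 3.28, 3.30 and 3.34 after irradiation, against 4.66, 4.41 and 3.64 without it, so that the groups did not overlap but came close at unirradiated pool 3. The log2 change was -0.93 ± 0.25 (adjusted p = 0.0189). Leaving out irradiated replicate 1 (adjusted p = 0.053), irradiated replicate 2 (0.0518) or unirradiated replicate 2 (0.0654) ended that call.

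Aurkb, the kinase of the complex, was not measured. Its single probe, on chromosome 11 at 68865105 to 68865164 of mm9, read -8.15, -8.17 and -8.21 on the irradiated arrays, against -8.17, -8.27 and -8.55 on the unirradiated arrays, and was well above background on none. No level or change of Aurkb can be read from it in either group.

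The outer kinetochore genes fell in 6 of 7 cases (median -2.46). The 4 subunits of the NDC80 complex moved alike, with log2 changes of -2.46 for Ndc80, -2.77 for Nuf2, -2.71 for Spc24 and -2.17 for Spc25. Cenpf, a large protein that joins the kinetochore in G2, measured -6.98, -5.26 and -6.47 on the irradiated arrays, against -2.76, -2.99 and -4.30 on the unirradiated arrays. It was well above background on 1 irradiated array only, its irradiated values scatter more than those of any other member, and the size of its change is uncertain for that reason: the fit gave -2.89 ± 0.56 (adjusted p = 0.00476), and -1.04 with normexp background correction. Cenpe, the kinesin that moves chromosomes toward the equator, changed by -2.34.

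Zwint, which links the kinetochore scaffold KNL1 to the ROD, ZW10 and ZWILCH complex, was the exception here. It measured 3.40, 3.47 and 3.46 on the irradiated arrays, against 3.63, 3.39 and 3.08 on the unirradiated arrays. The irradiated values lay inside the range of the unirradiated ones, and the log2 change was 0.07 ± 0.15 (adjusted p = 0.689). Its sign was negative with spike-in scaling (-0.21), with the mean over its probes (-0.25) and without unirradiated replicate 3 (-0.07), and it passed in no setting.

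All 9 centromere genes fell (median -2.56). Cenpa, the histone H3 variant that marks the centromere, changed by -2.54 ± 0.28. The genes of the constitutive network that sits on it lay close together: Cenph at -2.56, Cenpi at -2.32, Cenpk at -2.69, Cenpl at -1.78, Cenpm at -2.56 and Cenpn at -2.78. Cenpp, of the same network, changed most, measuring -2.49, -2.50 and -2.53 on the irradiated arrays, against 1.07, 0.60 and -0.38 on the unirradiated arrays. The irradiated pools were nearly equal and far below the others (-2.94 ± 0.35, 7.66-fold lower, adjusted p = 0.00059). Cenpt, the network's link to NDC80, measured -0.79, -0.83 and -0.95 after irradiation, against 0.39, 0.07 and -0.06 without it. That difference, -0.99 ± 0.13, was the smallest of the group and clear of the spread (adjusted p = 0.001).

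The 5 condensin genes and Top2a all fell (median -2.05). Top2a, the topoisomerase that untangles sister DNA, measured -0.93, -1.04 and -1.06 on the irradiated arrays, against 2.47, 2.19 and 1.02 on the unirradiated arrays. The groups were far apart, at -2.90 ± 0.36 and 7.48-fold lower (adjusted p = 0.000712). Smc2 and Smc4, the ATPase core that condensin I and II share, changed by -2.16 and -1.86. Smc4 had the smallest SE among the members, 0.11, and the lowest adjusted p, 7.47e-05. The condensin I subunits Ncapd2 and Ncaph changed by -2.26 and -1.94. Ncapg, the third, measured -5.46, -5.20 and -5.13 after irradiation, against -2.99, -3.47 and -4.21 without it. Its groups were clearly separate (-1.70 ± 0.30, adjusted p = 0.00317), and normexp background correction gave -0.76.

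The 4 spindle and cytokinesis genes all fell (median -2.57). Nusap1, which binds and bundles microtubules near chromosomes, measured -0.84, -0.85 and -0.67 on the irradiated arrays, against 2.79, 2.54 and 1.58 on the unirradiated arrays. No pool of one group came near the other, and the log2 change was -3.09 ± 0.30, 8.53-fold lower (adjusted p = 0.000292). Anln, the contractile ring protein anillin, measured -0.59, -0.42 and -0.40 after irradiation, against 2.36, 2.23 and 1.02 without it. Its change was -2.34 ± 0.35 (adjusted p = 0.00154), the smallest of the 4. Prc1, the bundler of the central spindle, changed by -2.67 and Tpx2, the activator of Aurora A, by -2.47.

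Mki67, which encodes the chromosome-coating protein Ki-67, measured 2.44, 2.33 and 2.27 on the irradiated arrays, against 6.21, 6.04 and 4.75 on the unirradiated arrays. The groups were widely apart (-3.32 ± 0.37, 9.99-fold lower, adjusted p = 0.000484). Foxm1, a transcription factor known to drive G2 and mitosis genes, measured -1.71, -1.80 and -1.80 after irradiation, against 0.84, 0.45 and -0.52 without it. It too was lower in every irradiated pool, at -2.03 ± 0.33 (adjusted p = 0.00221).

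The irradiated pools were alike over the members, and the unirradiated pools scattered. The median SD of a member was 0.0791 over the irradiated pools, beside 0.0936 over all genes. Over the unirradiated pools it was 0.717, beside 0.172 over all genes. The SD was larger in the 0 cGy group for 46 of 47 members, and the median SD over all genes was larger there as well. How many of all genes share that order was not counted. The members' scatter over the unirradiated pools had 1 shape. Pool 3 was the lowest of the 3 pools for 47 of 47 members, where the share over all genes was 40.8%. Pool 1 was the highest for 46, an order seen for 9920 of all 26643 genes. Pool 3 lay below the mean of pools 1 and 2 by a median of 1.22 on the log2 scale over the members, beside a median of 0.00 over all genes. The gap ran from -1.54 for Birc5 to -0.28 for Smc4. Without unirradiated replicate 3, 46 of 47 members fell and their median was -2.76; without unirradiated replicate 1 the median was -2.11.

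**Figure D3:**
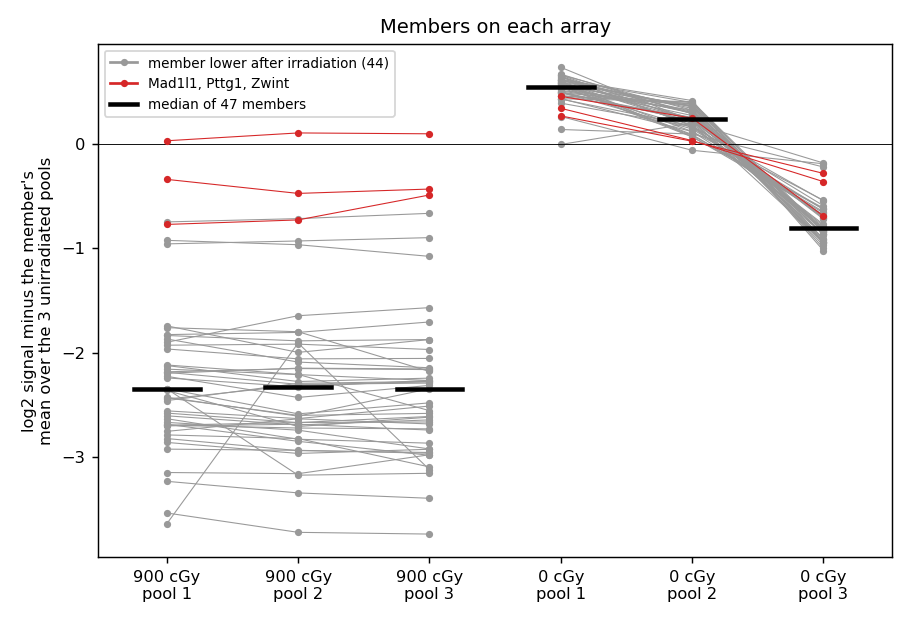
Log2 signal of each of the 47 tested members on each array, minus that member's mean over the 3 unirradiated arrays, with the 900 cGy arrays left of the 0 cGy arrays. Grey lines are the 44 members that fell, red lines the 3 that did not pass, and black bars the medians; lines join the arrays of a group to follow a member and imply no order. Unirradiated array 3 is the lowest of its group for 47 of 47.

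Markers of erythroid and neutrophil precursors showed the same order over the unirradiated pools. The summed signal of 10 erythroid precursor markers was 1.43 to 1.83 times the 75th percentile on the irradiated arrays, against 210, 163 and 63.9 times on unirradiated arrays 1, 2 and 3. All 10 fell after irradiation, beside 31% of all genes. However, only 5 were well above background on all 6 arrays, and the others passed the filter through 1 group only. Rhd and Add2 were well above background on no irradiated array. In pool 3 these markers lay below pools 1 and 2 by a median of 1.69, and 4 neutrophil precursor markers by 1.62. The neutrophil precursor sum was 27.7 to 33.9 on the irradiated arrays, against 171, 124 and 49.0 on unirradiated arrays 1, 2 and 3. T and plasma cell markers lay higher in pool 3, by a median of 0.34 for 2 T cell markers and 0.44 for 5 plasma cell markers, and so did the B cell markers Cd79a and Ms4a1, by 0.17 and 0.39. The sum of 5 germinal centre markers, of B cells that also divide, ran the other way, at 8.20, 9.31 and 10.6 on unirradiated arrays 1, 2 and 3. Singly these 5 were mixed. Pool 3 was the lowest of the 3 pools for 2 of them and the highest for 2, and the median gap was 0.09.

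Other cell markers moved with the irradiated group as well. The B cell markers Cd79a and Ms4a1 fell by 2.82 and 2.64 on the log2 scale (adjusted p = 5.09e-05 and 7.35e-05), 7.07-fold and 6.24-fold lower. T cell markers summed to 8.14 to 8.70 on the irradiated arrays, against 22.2 to 30.2 on the unirradiated ones. Red pulp macrophage markers summed to 407 to 427 on the irradiated arrays, against 111 to 112, and plasma cell markers to 190 to 208, against 69.3 to 91.6. The 5 germinal centre markers summed to 7.41 to 7.79, against 8.20 to 10.6, and 3 of them fell, beside 31% of all genes. Their single log2 changes ran from -3.49 to 0.20, with a median of -0.55. The part of these cell types in the fall of the mitotic genes was not tested.

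**Figure D4:**
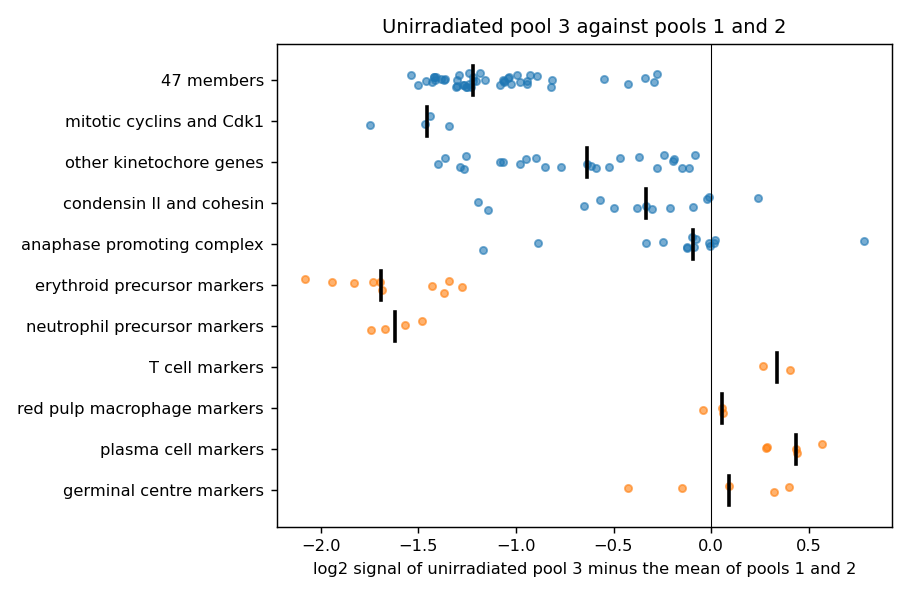
Log2 level in unirradiated pool 3 minus the mean of unirradiated pools 1 and 2 (horizontal axis), 1 point per gene. Blue points are the members and other lists of pathway genes, orange points cell type markers, and bars medians. Blue medians include -1.45 for mitotic cyclins and their kinase and -0.63 for other kinetochore genes. Those of condensin II and cohesin (-0.33) and of the anaphase promoting complex (-0.09) lie nearer to 0. The members (median -1.22) and the erythroid (-1.69) and neutrophil precursor markers (-1.62) lie left of 0, and the T and plasma cell markers right of it.

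Of the 48 members, 34 had 1 probe and 14 had several, which tells whether the reported probe stands for the gene. For 7 of the 14 the measured probes differed by less than 0.3 in their log2 change; the 2 probes of Mki67 gave -3.32 and -3.24, and those of Ube2c both gave -2.84. The 3 probes of Birc5 gave -2.91, -3.09 and -3.25, and those of Mad2l1 -1.87, -1.58 and -1.51. Gaps of more than 1 were seen for 3 members: Nuf2 gave -2.77 and -0.77, Cenpp -2.94 and -1.15, and Tpx2 -2.47 and -1.13.

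For 2 of the 3 members that did not pass, the second probe passed. The second probe of Zwint, on chromosome 10 at 72131730 to 72131789 of mm9, measured 1.05, 1.19 and 1.19 on the irradiated arrays, against 1.78, 1.82 and 1.53 on the unirradiated arrays. Its groups did not overlap, and it differed by -0.57 (adjusted p = 0.00474 in a limma fit over probes), while the reported probe at 72137537 to 72137596 differed by 0.07. The second probe of Pttg1, on chromosome 11 at 43234562 to 43234621, differed by -1.03 (adjusted p = 0.0154) and the reported one, at 43233801 to 43233860, by -0.67. Which exon or UTR these probes lie in was not analysed here.

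**Figure D5:**
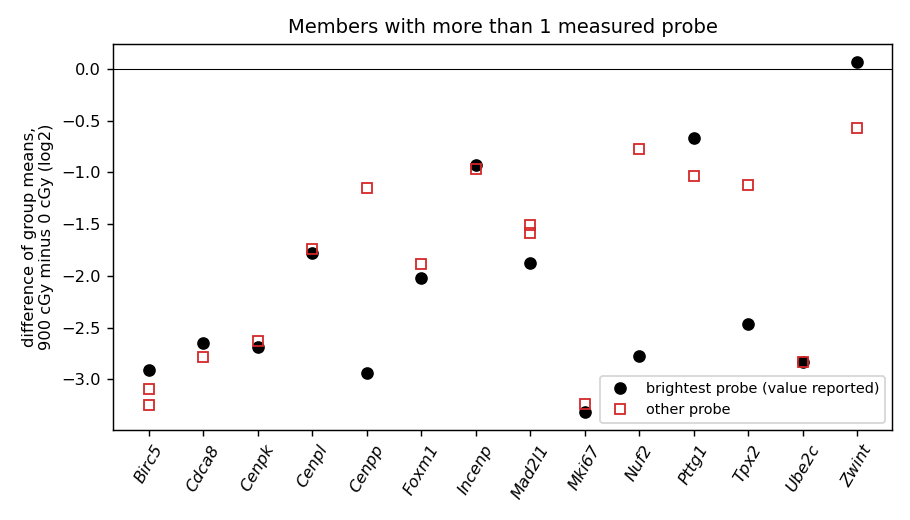
Difference of group means (900 cGy minus 0 cGy, log2, vertical axis) for every measured probe of the 14 members with several probes. Black circles are the brightest probe, whose value is reported, and red squares the others. Zwint (0.07 and -0.57), Nuf2, Cenpp and Tpx2 show the wide gaps.

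Genes of the same pathway outside the 48 were read from lists of their own, also written with earlier results of these data known. Of 25 other kinetochore genes, 22 fell and 1 rose (median -1.67), where 31% and 28.3% of all genes did. Casc5, the scaffold KNL1, and Ska1, which couples kinetochores to shrinking microtubules, changed most, by -3.33 ± 0.36 and -3.13 ± 0.40. Cenpb, which binds centromere satellite DNA, was higher by 0.58 ± 0.10 (adjusted p = 0.0024), and by 0.30 with spike-in scaling (adjusted p = 0.222). Of 13 condensin II and cohesin genes, 11 fell and 0 rose (median -0.70), beside the same shares of all genes. The largest changes were those of Cdca5, which encodes sororin, at -1.97 ± 0.33, and of Ncapd3, at -1.69 ± 0.19.

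Of 14 genes of the anaphase promoting complex and its partners, 7 fell and 1 rose (median -0.23), beside 31% and 28.3% of all genes. Only 4 fell when irradiated replicate 2, irradiated replicate 3 or unirradiated replicate 1 was left out. Fbxo5, its inhibitor EMI1, changed by -2.86 ± 0.32 and Ube2s, its chain-extending enzyme, by -1.23 ± 0.25. Anapc11, its RING subunit, rose by 0.28 ± 0.07 (adjusted p = 0.016), a call that ended under 7 of 19 alternatives and that spike-in scaling turned to -0.0073. All 4 genes of mitotic cyclins and their kinase fell (median -2.87), Ccna2 changing by -3.49 ± 0.48 and Ccnb2 by -2.98 ± 0.38.

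Of 7 tested paralogs of members, 4 fell and 2 rose, beside 31% and 28.3% of all genes. The polo-like kinases Plk2 and Plk3, known as stress-induced relatives of Plk1, rose by 1.71 ± 0.10 and 1.09 ± 0.10 (adjusted p = 6.49e-05 and 0.000252), while Plk1 and Plk4 fell. Aurkc, of the Aurora family, changed by -2.06 ± 0.15. Of 11 genes of the DREAM and MuvB complexes, 8 fell and 2 rose (median -0.75), beside the same shares of all genes. Mybl2, which encodes B-MYB, changed by -2.72 ± 0.44 and E2f4 by -1.68 ± 0.29. Lin52 and Rbl2 were higher by 0.49 ± 0.09 and 0.59 ± 0.09, and by 0.21 and 0.31 with spike-in scaling, where neither passed (adjusted p = 0.377 and 0.185).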

How the data were processed

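Per the labels' protocols, RNA was isolated from homogenised splenocytes with TRIzol and RNeasy and labelled with Cy3. Agilent Feature Extraction 10.5.1.1, per the submitters' processing notes and the file headers, gave the deposited intensity values; the processed intensity is background-subtracted within the array and not normalized between arrays. The values of the authors' deposited table are log2; compared with the scanner intensities, they proved to be scaled by the 75th percentile and then centred probe by probe on the median, in the same direction (column medians -0.025, 0.018 and -0.0083 for 900 cGy and 0.047, -0.0059 and -0.046 for 0 cGy).

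Processed intensity was scaled to each array's 75th percentile over 59305 non-control spots (1114 to 1182 at 900 cGy, 1152 to 1403 at 0 cGy), and log2 was taken. Spots marked as outliers (91 to 146 per array) were left out and spots of 1 probe averaged. A probe whose every spot was marked on an array kept its value there, which was so for 0 of the 65 member probes. Genes were named through a RefSeq table of GRCm38.p6 (27325 probes by accession, 3523 by symbol, 551 by synonym) and otherwise kept the file's name (24282). The brightest probe stood for a gene, kept if well above background on all 3 arrays of a group. Groups were compared with limma 3.58.1 (lmFit, eBayes, two-sided, R 4.3.3), adjusted by Benjamini-Hochberg over all genes, threshold 0.05, and tested on simulated data. Probe positions are those of the files (mm9). Members and lists were chosen with earlier results of these data known. Values on all 6 arrays are given for the largest and smallest change of each role, for members that did not pass, and for Bub3 and Aurkb, added after their values were seen; in other lists the 2 largest changes and any against the list's direction are named. Precision is limited by the number of arrays. Summed values of the B cell marker list are not reported here.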

Additional observations from a re-analysis of the deposited data

How the results depend on the processing

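No member's call was reversed. Over the alternatives tried (normexp, quantile, median and spike-in scaling, other filters on dim probes, the mean over probes, the authors' deposited table, 2 variance models, blocks, and each array left out) between 37 and 46 members fell, 0 rose, and their median lay between -2.76 and -2.11. With spike-in scaling 10791 genes were lower and 4807 higher. It left 0 other kinetochore genes, 0 anaphase promoting complex genes and 0 DREAM and MuvB genes higher, Anapc11 being at -0.0073. Anaphase promoting complex genes called higher numbered 2 with normexp, quantile or median scaling, an intensity trend or array weights, and 0 with the mean over probes, the replicate block or the row block. DREAM and MuvB genes called higher numbered 1 with the mean over probes or the row block. With the row block, 7 condensin II and cohesin genes and 4 anaphase promoting complex genes fell. In row 1 alone, 3788 genes were lower and 4475 higher; 4 condensin II and cohesin, 2 anaphase promoting complex, 1 paralog and 2 DREAM and MuvB genes fell, and 0 other kinetochore, 0 anaphase promoting complex and 0 DREAM and MuvB genes rose. Leaving out 1 array gave 43 to 46 members lower, and for the anaphase promoting complex 4 to 8 lower and 0 to 2 higher. The cause of these moves was not tested.

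Replicate numbers were not taken to pair the arrays. Deviations of same-numbered arrays correlated at 0.0728, 0.117 and -0.0019, and those of differently numbered arrays at -0.135 to 0.0658. With 3 arrays per group these values cannot exclude a pairing. With the replicate block 44 members fell, as without it, 7557 genes being lower and 7144 higher. Mad1l1 also passed with normexp, array weights and spike-in scaling (-0.70), and Pttg1 with spike-in scaling (-0.95) and the mean over probes (-0.85). Dim genes are limited by background: with normexp, Cenpf changed by -1.04, Ttk by -1.21, Plk4 by -1.23 and Ncapg by -0.76.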
